A study of Mus musculus with 14 samples.

Results

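The Toll-like receptors and their accessory protein CD14 were examined as 10 genes of colonic macrophages: *Tlr1*, *Tlr2*, *Tlr4* and *Tlr5*, whose products sit at the cell surface, *Cd14*, and *Tlr3*, *Tlr7*, *Tlr8*, *Tlr9* and *Tlr13*, whose products act in endosomes. They were chosen by name (listed in capitals as TLR1, TLR2, TLR4, TLR5, CD14, TLR3, TLR7, TLR8, TLR9 and TLR13) from the 24982 genes of the count table. The 3 other receptor genes of the table, *Tlr6*, *Tlr11* and *Tlr12*, are given beside them. RNA came from live CD45+ lamina propria cells of the colon and cecum, sorted as CD64+CD11b+, Ly6C-MHCII+, Ly6G- and CD103-, each library being made from 1 mouse aged 5 weeks. All mice carried *Cdcs1*, a colitis susceptibility locus, on a C57BL/6 background. WT mice (labelled *Cdcs1* only, n = 4: mice 4, 5, 10 and 13), IL10RAKO mice (*Cdcs1*, *Il10ra* -/-, n = 4: mice 1, 2, 7 and 8) and DKO mice (*Cdcs1*, *Il10ra* -/-, *Ccr2* -/-, n = 4: mice 3, 9, 12 and 14) were compared. WT mouse 11 and a single CCR2KO mouse (*Cdcs1*, *Ccr2* -/-, mouse 6) were not in the authors' table of normalised values and stood outside the fit. The deletions were not restricted to macrophages, and by the labels the housing allowed spontaneous colitis to develop.

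Toll-like receptors recognise microbial products and pass the signal to adaptor proteins at their cytoplasmic side. TLR2 pairs with TLR1 or TLR6 and senses bacterial lipopeptides, TLR4 senses lipopolysaccharide together with MD-2 (encoded by *Ly96*), and TLR5 senses flagellin. CD14 is a lipid-binding surface protein that hands lipopolysaccharide to TLR4 and lipopeptides to TLR2. The endosomal receptors sense nucleic acids: TLR3 double-stranded RNA, TLR7 and TLR8 single-stranded RNA and its breakdown products, TLR9 unmethylated CpG DNA, and TLR13, which humans lack, bacterial ribosomal RNA. Resident macrophages of the healthy gut are known for weak cytokine responses to such ligands, and IL-10 is a signal that restrains them.

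The libraries held between 13085287 and 21216468 counted reads (12 libraries), and WT mouse 11 held 12153000. *Il10ra* (IL10RA) averaged 284 ± 70.1 CPM over the WT mice, 7.41 ± 2.67 over the IL10RAKO mice and 5.31 ± 2.12 over the DKO mice (mean ± SD, n = 4), CPM being counts of reads scaled to a common library size with TMM factors. *Ccr2* (CCR2) was at 593 ± 80, 476 ± 128 and 5.67 ± 1.22 CPM in the same order. The 10 macrophage identity markers, including *Csf1r*, *Cd68* and *C1qa*, summed to between 6948 and 12874 CPM in the 12 libraries, and each was read in every group. Against WT, 1 of them was called in IL10RAKO mice (*Fcgr1*, higher) and 3 in DKO mice (*Mertk* higher, *Adgre1* and *Cx3cr1* lower). Markers of other cells were read as well. Neutrophil markers summed to between 0.997 and 7.26 CPM in WT, 9.61 and 115 in IL10RAKO and 54.6 and 79.1 in DKO mice, and Ly6C+ monocyte markers to between 123 and 185, 367 and 1048, and 432 and 698. Fibroblast markers went the other way, from between 294 and 577 CPM in WT to between 15 and 53.7 in IL10RAKO and 16.1 and 67 in DKO mice. Markers of T and NK cells and of epithelium were not called, 1 of 3 tested endothelial markers (*Plvap*) was lower in both comparisons, and of 4 conventional dendritic cell markers 2 were higher in IL10RAKO and 1 in DKO mice. In bulk RNA of this kind, fewer cells of a type and less RNA per cell cannot be told apart.

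The regions around the transcription starts of *Tlr2* and of the genes for its 2 partners are shown because TLR2 pairs with both, while *Tlr2* and *Tlr6* passed the test against WT and *Tlr1* did not. RefSeq windows on GRCm38.p6 (mm10), each from 250 bases before to 50 bases after a start, were found for 7 of the 9 receptor genes among the 10 genes examined and for 10 of all 12 receptor genes. *Tlr2* lies at chr3:83841559-83841858, *Tlr6* at chr5:64959999-64960298 and *Tlr1* at chr5:64933509-64933808, all on the minus strand, and for *Tlr6* and *Tlr1*, which have 2 windows each, the most upstream was taken. Sequences run 5′ to 3′ along the gene, and capitals mark matches on either strand to 4 motifs: the NF-kB motif, the STAT-type motif TTCNNNGAA, GAGGAA (a core of PU.1 sites) and GAAANNGAA (interferon-response type).
Tlr2: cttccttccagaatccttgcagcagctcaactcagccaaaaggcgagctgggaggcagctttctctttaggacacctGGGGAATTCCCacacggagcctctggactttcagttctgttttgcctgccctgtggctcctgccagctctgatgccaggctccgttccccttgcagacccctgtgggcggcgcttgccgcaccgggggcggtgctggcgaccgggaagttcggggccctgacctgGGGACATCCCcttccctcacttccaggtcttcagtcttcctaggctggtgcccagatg
Tlr6: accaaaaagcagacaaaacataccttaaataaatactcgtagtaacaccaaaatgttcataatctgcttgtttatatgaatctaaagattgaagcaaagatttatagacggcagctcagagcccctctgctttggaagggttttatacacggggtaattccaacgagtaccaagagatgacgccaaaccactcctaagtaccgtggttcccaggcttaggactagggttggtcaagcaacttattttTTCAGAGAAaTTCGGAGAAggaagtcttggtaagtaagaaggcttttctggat
Tlr1: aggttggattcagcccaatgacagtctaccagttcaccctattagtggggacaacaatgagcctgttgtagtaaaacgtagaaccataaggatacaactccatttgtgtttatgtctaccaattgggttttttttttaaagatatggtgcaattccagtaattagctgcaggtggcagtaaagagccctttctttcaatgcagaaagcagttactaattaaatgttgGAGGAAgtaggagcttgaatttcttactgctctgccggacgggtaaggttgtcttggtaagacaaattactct
The *Tlr2* window held 3 matches to the NF-kB motif, of which 2 overlap in 1 stretch. The *Tlr6* window held 2 STAT-type matches, 1 across the start and 1 just after it, and the *Tlr1* window held 1 GAGGAA. Over all 32851 windows of this length, the NF-kB motif was found in 8.46%, the STAT-type motif in 8.3%, GAAANNGAA in 8.56% and GAGGAA in 28.3%. A match is a run of letters and not a binding site. In the other 7 receptor windows, the NF-kB motif matched 1 (*Tlr3*), and 1 window (*Tlr8*) held a STAT-type match. GAGGAA was found in those of *Tlr8*, *Tlr9*, *Tlr11* and *Tlr13*, and GAAANNGAA in those of *Tlr8* and *Tlr11*.

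Within WT macrophages, the receptors differed widely in level. Levels of different genes are compared as RPKM, which is CPM divided by the exon length of the gene in kilobases. *Cd14* led at 954 ± 108 RPKM (mean ± SD, n = 4), followed by *Tlr2* at 72.5 ± 6.5, and the libraries of neither overlapped with those of the next gene. *Tlr1* (27.6 ± 4.86 RPKM) and *Tlr13* (22.4 ± 5.11) formed the next step, and their ranges overlapped. *Tlr8* (13.9 ± 3.88) and *Tlr7* (12.3 ± 3.06) overlapped each other as well, and the range of *Tlr8* reached that of *Tlr13*. The lipopolysaccharide receptor *Tlr4* stood below all of these at 7.71 ± 0.88 RPKM, from 6.77 to 8.83. *Tlr5* (2.27 ± 0.234) and *Tlr3* (2.18 ± 1.28) came next, and *Tlr9* was last at 0.554 ± 0.395 RPKM, with 14 to 61 reads per WT library. *Tlr12*, which is not among the 10 genes, reached 37.4 ± 11 RPKM, above *Tlr1*. The order of the first 7 genes was the same in IL10RAKO and in DKO mice, and *Tlr3* and *Tlr5*, whose ranges overlapped in all 3 genotypes, changed places. In WT, the range of *Tlr3* also met that of *Tlr9*.

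IL10RAKO mice were compared with WT to ask which receptors differ between macrophages of these genotypes. The deletion was not restricted to macrophages, so its effect within these cells and that of colitis cannot be told apart here. The surface genes *Tlr2* and *Cd14* were higher in IL10RAKO macrophages, by 3.45-fold and 3.75-fold, while 8 genes did not pass the test. Of the 10 genes, 2 were therefore called, both higher, beside 15.8% of the 13136 genes tested that were called in either direction and 8.70% that were called higher. Both called genes also showed no overlap between genotypes, with every IL10RAKO library above every WT library, as did 9.45% of all genes tested. The median log2 fold change of the 10 genes was 0.24, against -0.07 over all genes tested. Genes were called at an adjusted p below 0.05 in edgeR's quasi-likelihood test with Benjamini-Hochberg adjustment, and all 10 genes passed the filter on low counts.

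*Tlr2* (ENSMUSG00000027995.10, chr3:83836272-83841767) was read at 204, 229.8, 200.5 and 240.4 CPM in WT mice 4, 5, 10 and 13. In IL10RAKO mice 1, 2, 7 and 8 it was at 671, 895, 495 and 958 CPM, and in DKO mice 3, 9, 12 and 14 at 582, 883, 694 and 742 CPM. The lowest mouse without *Il10ra* thus lay above the highest WT mouse by a wide margin, and the IL10RAKO and DKO values were interleaved. The log2 fold change was 1.79 (SE 0.206, 95% confidence interval 1.35 to 2.23, adjusted p = 4.81e-05) in IL10RAKO and 1.73 (SE 0.206, interval 1.29 to 2.17, adjusted p = 4.92e-05) in DKO mice in the edgeR fit.

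*Cd14* (ENSMUSG00000051439.7, chromosome 18) showed the same separation. WT mice 4, 5, 10 and 13 had 1788, 1420, 1585 and 1820 CPM, IL10RAKO mice 1, 2, 7 and 8 had 5334, 7734, 3819 and 7903, and DKO mice 3, 9, 12 and 14 had 5782, 6663, 4699 and 4948. Mouse 7 was the lowest IL10RAKO mouse and mouse 8 the highest for both genes, and no library without *Il10ra* reached down to the WT range. The log2 fold change was 1.91 (SE 0.224, interval 1.43 to 2.39, edgeR adjusted p = 5.61e-05) in IL10RAKO and 1.74 (SE 0.222, interval 1.26 to 2.22, adjusted p = 9.07e-05) in DKO mice. Since both genes were higher by a like amount, the ratio of *Cd14* to *Tlr2* in RPKM was 13.2 ± 1.88 in WT, 14.2 ± 0.704 in IL10RAKO and 13.5 ± 2.65 in DKO mice. CCR2KO mouse 6, in which *Il10ra* is intact, had 171 CPM of *Tlr2* and 1348 CPM of *Cd14*, each below the lowest of the 4 WT mice, and WT mouse 11 had 174 and 1703 CPM.

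**Figure D1:**
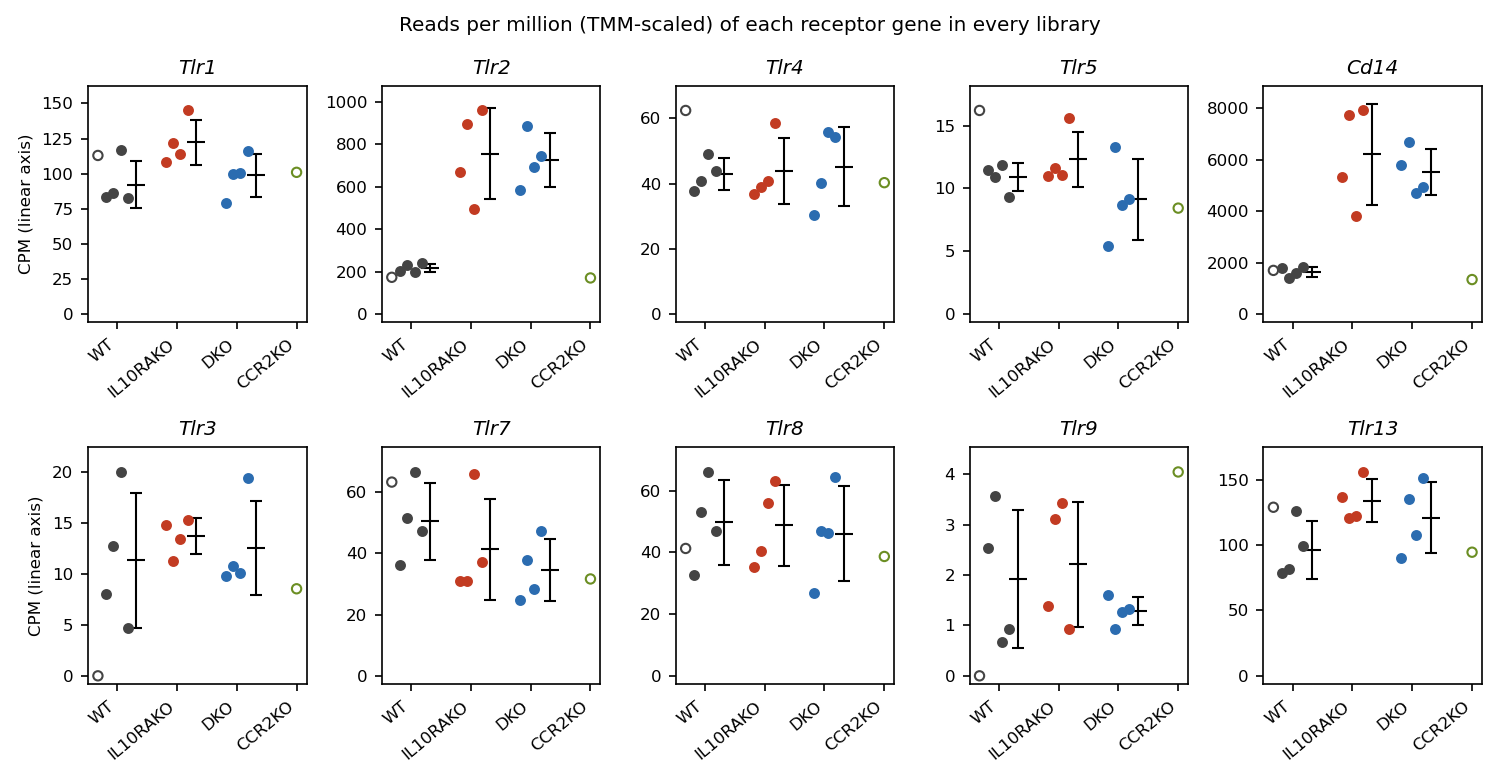
Level of each of the 10 genes in every library, in CPM on linear axes that start near 0; filled points are the 12 libraries compared, open points WT mouse 11 and CCR2KO mouse 6, and bars the mean ± SD of 4 mice. *Tlr2* and *Cd14* are the 2 genes in which all IL10RAKO and DKO mice sit above all WT mice.

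Neutrophils and monocytes are also known to carry CD14 and TLR2, so their markers are set beside these values. In IL10RAKO mice 1, 2, 7 and 8, neutrophil markers summed to 43.6, 115, 9.61 and 41.5 CPM and Ly6C+ monocyte markers to 778, 1048, 367 and 613 CPM. Both sums were lowest in mouse 7, which had the lowest *Tlr2* and *Cd14* of its genotype, and highest in mouse 2, which was second to mouse 8 for both genes. In DKO mice 3, 9, 12 and 14, the neutrophil sums were 73.2, 54.6, 79.1 and 58.1 CPM and the monocyte sums 698, 432, 465 and 599.8 CPM, and mouse 9, with the lowest of both, had the highest *Tlr2* and *Cd14*. *Mmp8* gave 53.1, 32.5, 37.9 and 22.6 CPM of these neutrophil sums. *S100a8* (9.83, 11, 21.4 and 18.2 CPM) and *S100a9* were lowest in mouse 3, and *Cxcr2* was lowest in mouse 9. CCR2KO mouse 6 had sums of 15.4 and 386 CPM, each above that of IL10RAKO mouse 7, with 171 CPM of *Tlr2* and 1348 CPM of *Cd14*. Of the 6 neutrophil markers, 4 passed the filter and all 4 were called higher in IL10RAKO and in DKO mice, and of the 5 Ly6C+ monocyte markers, 2 (*Ly6c2* and *Plac8*) were. Estimates were negative for 1 of the 5 monocyte markers in IL10RAKO and 2 in DKO mice. *Plac8* gave 539, 771, 224 and 437 CPM of the monocyte sums in IL10RAKO mice 1, 2, 7 and 8. In DKO mice 3, 9, 12 and 14 it gave 445, 286, 303 and 429 CPM. How much these cells contributed to *Tlr2* and *Cd14* was not tested.

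The partners of TLR2 did not move as a pair. *Tlr1* (ENSMUSG00000044827.10, chr5:64924679-64933563) had 83.7, 86.1, 117 and 82.4 CPM in WT mice 4, 5, 10 and 13, 108, 122, 114 and 145 CPM in IL10RAKO mice 1, 2, 7 and 8, and 79, 99.9, 100.4 and 116 CPM in DKO mice 3, 9, 12 and 14. Its groups overlapped, with WT mouse 10 standing above mice 4, 5 and 13 and near WT mouse 11 outside the fit (113 CPM). The log2 fold change of *Tlr1* was 0.41 (interval 0.049 to 0.77, unadjusted p = 0.0288 in edgeR, adjusted p = 0.121) in IL10RAKO and 0.10 (interval -0.26 to 0.46, adjusted p = 0.731) in DKO mice. *Tlr6* (ENSMUSG00000051498.6, chr5:64952031-64960097), 18.5 kb from *Tlr1*, rose from 7.73, 13, 3.77 and 8.46 CPM in the WT mice to 28, 35.1, 24.2 and 35.7 CPM in IL10RAKO and 27.6, 30.6, 22.2 and 33.2 CPM in DKO mice, with no overlap. Its log2 fold change was 1.90 (interval 1.26 to 2.54, edgeR adjusted p = 5.75e-04) and 1.79 (interval 1.15 to 2.43, adjusted p = 7.88e-04). In RPKM, *Tlr6* amounted to 0.0849 ± 0.0438 of *Tlr1* in WT, 0.225 ± 0.0279 in IL10RAKO and 0.261 ± 0.0479 in DKO mice. The last 2 ranges did not overlap with that of the 4 WT mice, and WT mouse 11 stood between at 0.173. *Tlr1* and *Tlr6* are close paralogs, and how reads that align to both were counted is not given in the sources used here, so the split between them is uncertain.

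*Tlr4* (ENSMUSG00000039005.13, chr4:66827584-66930284) showed no separation of the genotypes. WT mice 4, 5, 10 and 13 had 37.6, 40.7, 49.1 and 43.9 CPM, IL10RAKO mice 1, 2, 7 and 8 had 36.9, 39.1, 40.9 and 58.7, and DKO mice 3, 9, 12 and 14 had 30.3, 40.2, 55.7 and 54.4. The values overlapped throughout, and the interval of the log2 fold change ran from -0.42 to 0.49 in IL10RAKO (estimate 0.035, edgeR adjusted p = 0.935) and from -0.38 to 0.53 in DKO mice (estimate 0.075, adjusted p = 0.849). A change of the size seen for *Tlr2* lies outside both intervals. With library totals in place of TMM factors, which moved the median of all genes to -0.39 and -0.32, the estimates for *Tlr4* turned to -0.30 and -0.17. The ratio of *Tlr2* to *Tlr4* in RPKM was 9.5 ± 1.33 in WT, 32 ± 8.22 in IL10RAKO and 31 ± 8.37 in DKO mice, and that of *Cd14* to *Tlr4* was 125 ± 22, 458 ± 138 and 427 ± 172. Neither ratio overlapped between WT and the other 2 genotypes. The flagellin receptor *Tlr5* (ENSMUSG00000079164.8, chr1:182954788-182976044) ranged from 9.32 to 11.9 CPM in WT, from 11 to 15.6 in IL10RAKO and from 5.41 to 13.3 in DKO mice, with a log2 fold change of 0.18 (interval -0.38 to 0.74) and -0.25 (interval -0.81 to 0.31).

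None of the 5 endosomal receptor genes was called in either comparison with WT in edgeR or in DESeq2. Over all genes tested, edgeR called 15.8% in IL10RAKO and 18.5% in DKO mice, and none of 5 is close to those shares. Among the 5, *Tlr13* had an unadjusted p below 0.05 in edgeR in IL10RAKO mice. *Tlr13* (ENSMUSG00000033777.4, chrX:106143204-106160493), the receptor for bacterial ribosomal RNA, had 78.4, 81.4, 126 and 99.2 CPM in WT mice 4, 5, 10 and 13. It had 137, 121, 122 and 156 CPM in IL10RAKO mice 1, 2, 7 and 8 and 89.9, 135, 108 and 151 CPM in DKO mice 3, 9, 12 and 14. Of these 4 WT mice, mouse 10 reached into the IL10RAKO range, as did WT mouse 11 outside the fit (129 CPM). The log2 fold change was 0.48 (interval 0.057 to 0.90, unadjusted p = 0.0286 in edgeR, adjusted p = 0.121) in IL10RAKO and 0.33 (interval -0.094 to 0.75, adjusted p = 0.28) in DKO mice, and without WT mouse 10 the first was 0.64 with an adjusted p of 0.0484, and with WT mouse 11 added it was 0.39 with an adjusted p of 0.22.

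*Tlr7* (ENSMUSG00000044583.13, chrX:167304929-167330558) and *Tlr8* (ENSMUSG00000040522.5, chrX:167242696-167264329) lie 40.6 kb apart. *Tlr7* had 36.3, 51.5, 66.5 and 47.1 CPM in WT mice 4, 5, 10 and 13, 31, 31, 65.7 and 37.2 CPM in IL10RAKO mice 1, 2, 7 and 8, and 24.6, 37.8, 28.3 and 47.2 CPM in DKO mice 3, 9, 12 and 14. Mice 10, 7 and 14 had the highest values of their genotypes, WT mouse 11 outside the fit had 63.2 CPM, and the groups overlapped. The log2 fold change of *Tlr7* was -0.29 (interval -0.89 to 0.31) in IL10RAKO and -0.55 (interval -1.15 to 0.051, edgeR adjusted p = 0.20) in DKO mice. For *Tlr8*, the libraries ran from 32.6 to 66.1 CPM in WT, from 35.3 to 63.2 in IL10RAKO and from 26.7 to 64.4 in DKO mice, and the fold changes were -0.029 (interval -0.62 to 0.56) and -0.11 (interval -0.70 to 0.48) on the log2 scale. Mice 10, 7 and 14 were also the most deeply sequenced of their genotypes, and the part of depth in the *Tlr7* values was not tested.

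*Tlr7*, *Tlr8* and *Tlr13* are X-linked, and reads of *Xist*, the RNA of the inactive X chromosome, were found in 3 WT, 2 IL10RAKO and 1 DKO library of the fit. Among its 4 WT libraries, the single one without *Xist* (mouse 10) was the highest for all 3 genes. WT mouse 11, outside the fit and also without *Xist*, was above mouse 10 for *Tlr13* (129 CPM), while its *Tlr8* (41.3 CPM) was below that of mice 5 and 13, which had *Xist*. Among IL10RAKO mice, the 2 libraries without *Xist* were above the 2 with it for *Tlr7* (37.2 and 65.7 against 31 and 31 CPM). For *Tlr8* they were at 56 and 63.2 against 35.3 and 40.5 CPM, and for *Tlr13* the ranges overlapped. In contrast, in DKO the single library with *Xist* (mouse 14) was the highest for all 3. A term for *Xist*, added after the data had been seen, changed no call among the 10 genes.

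*Tlr3* (ENSMUSG00000031639.12, chr8:45395665-45411080) spread widely among WT mice, with 8.02, 12.7, 20 and 4.73 CPM in mice 4, 5, 10 and 13. It ran from 11.3 to 15.3 CPM in IL10RAKO and from 9.77 to 19.4 in DKO mice, all within the WT range, and its log2 fold change was 0.26 (interval -0.52 to 1.05) and 0.14 (interval -0.65 to 0.93). *Tlr9* (ENSMUSG00000045322.10, chr9:106222598-106226883) had the fewest reads, from 14 to 68 per library, and was read at 2.53, 3.58, 0.663 and 0.932 CPM in WT, 1.39, 3.11, 3.44 and 0.925 in IL10RAKO and 1.6, 0.934, 1.27 and 1.33 in DKO mice. Its intervals, from -1.12 to 1.53 in IL10RAKO and from -1.92 to 0.76 in DKO mice on the log2 scale, were the widest of the 10 genes, and a 2-fold lower level of *Tlr9* lay within both. The counts did not follow depth in WT, where mouse 10, with 21024878 reads in all, had 16 reads of *Tlr9* and mouse 5, with 14493783, had 61. TLR9 is known from B cells and plasmacytoid dendritic cells. B cell markers summed to 1145, 1108, 401 and 582 CPM in WT mice 4, 5, 10 and 13, where mouse 10 was also lowest for *Tlr9*. In IL10RAKO mice 1, 2, 7 and 8 the sums were 581, 673, 897 and 311 CPM and ranked the mice as *Tlr9* did. In DKO mice 3, 9, 12 and 14 they were 1213, 462, 673 and 437 CPM. DKO mouse 3 was highest for both, while mouse 14 had the lowest sum and mouse 9 the lowest *Tlr9*. No B cell marker was called against WT. Of the 4 plasmacytoid dendritic cell markers, *Siglech* was called lower in both comparisons. The estimates of the other 3 were above 0 in both and were not called. The part of either cell type in the *Tlr9* values was not tested.

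Loss of both receptors was compared with WT in the same fit. In DKO mice, again 2 of the 10 genes were called, the same *Tlr2* and *Cd14*, each by about 3.3-fold, beside 18.5% of all genes tested that were called in either direction and 9.23% called higher. All DKO libraries lay above all WT libraries for these 2 genes, as they did for 11.2% of all genes tested. The median log2 fold change of the 10 genes was 0.088, against -0.065 over all genes tested. The 2 comparisons share the 4 WT libraries, and their values are given side by side for that reason.

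Whether the added loss of *Ccr2* altered the receptors was tested directly between DKO and IL10RAKO mice. None of the 10 genes was called in edgeR, none had an unadjusted p below 0.05, and DESeq2 called none either, beside 0.0457% of all genes tested that edgeR called. The log2 difference was -0.058 for *Tlr2* (interval -0.49 to 0.37) and -0.17 for *Cd14* (interval -0.63 to 0.30). The estimates were negative for 9 of the 10 genes, *Tlr2* turning positive (0.014) with library totals in place of TMM factors, and ran from -0.79 for *Tlr9* to 0.041 for *Tlr4*, with a median of -0.16 against -0.012 over all genes tested. The interval stayed within a 2-fold change in either direction for 9 of the 10 genes, the exception being *Tlr9* (-2.13 to 0.56). For *Tlr1*, the estimate was -0.31 (interval -0.67 to 0.052), and for *Tlr5* -0.43 (interval -0.99 to 0.13).

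**Figure D2:**
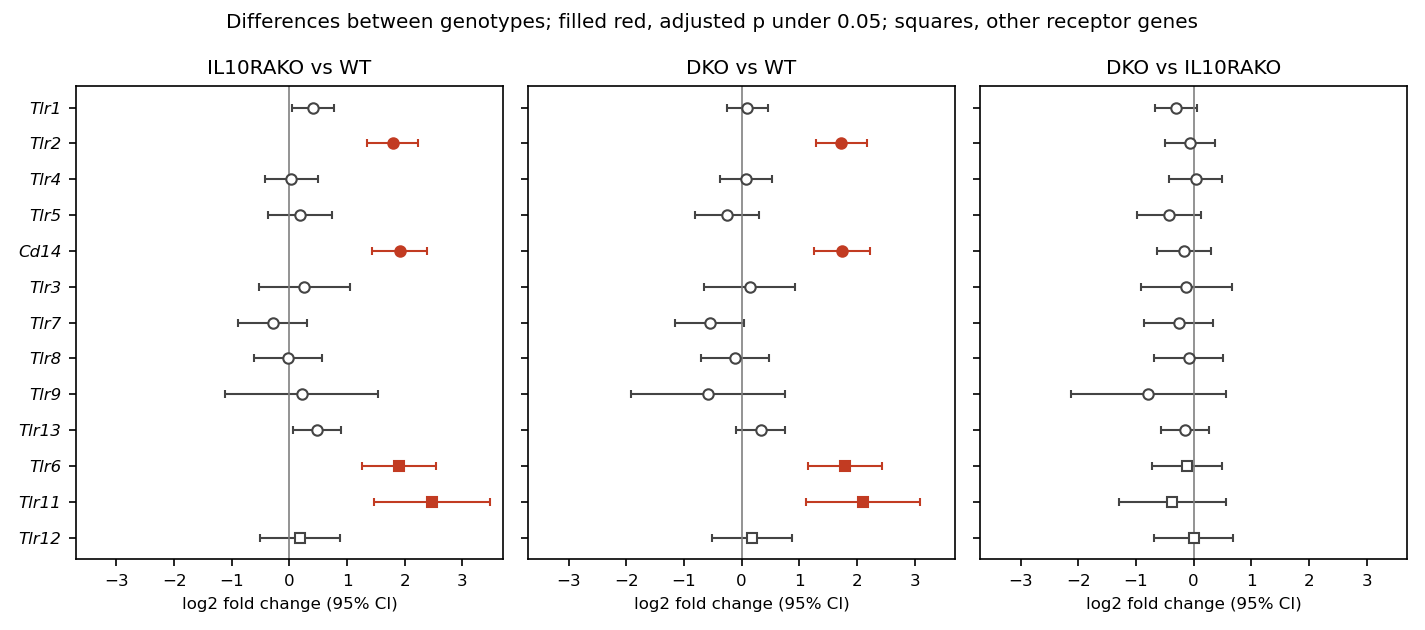
Log2 fold changes with 95% confidence intervals from the edgeR fit of 12 libraries; circles are the 10 genes, squares *Tlr6*, *Tlr11* and *Tlr12*, and filled red points those with an adjusted p below 0.05. *Tlr2*, *Cd14*, *Tlr6* and *Tlr11* lie above 0 against WT in both panels, and no point is filled between DKO and IL10RAKO.

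Expressed as a share of the summed RPKM of all 12 Toll-like receptor genes, *Tlr2* took 36.4% ± 5.15 in WT, 60.4% ± 9.01 in IL10RAKO and 62.8% ± 4.78 in DKO mice (mean ± SD, n = 4). The lowest share without *Il10ra* was 47.6% (mouse 7) and the highest in WT 41.2% (mouse 4), so the shares did not overlap. The sum itself was 202 ± 27 RPKM in WT, 409.7 ± 69.7 in IL10RAKO and 385 ± 71.3 in DKO mice. *Tlr12* made up 18.2% ± 3.5, 10.8% ± 5.24 and 10.7% ± 3.08, *Tlr1* 13.7% ± 1.82, 8.99% ± 0.614 and 7.74% ± 0.682, and *Tlr4* 3.84% ± 0.235, 1.93% ± 0.244 and 2.12% ± 0.498. These lower shares of *Tlr1* and *Tlr4* follow from the larger sum and do not stand for fewer reads of either gene. CCR2KO mouse 6 had a *Tlr2* share of 35% and WT mouse 11 one of 25.3%.

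**Figure D3:**
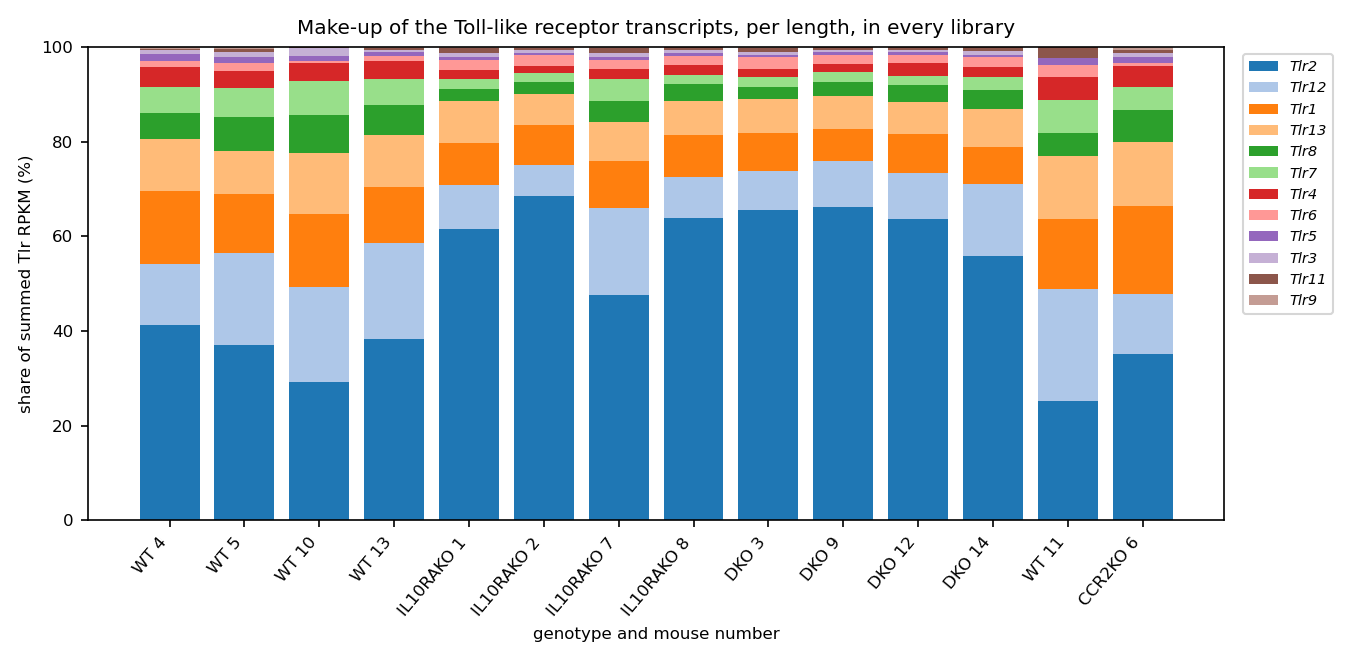
Share of each Toll-like receptor gene in the summed RPKM of the 12 genes, in percent, for every library, labelled by genotype and mouse number; WT mouse 11 and CCR2KO mouse 6 stand at the right. The *Tlr2* segment covers from 47.6% to 68.5% in IL10RAKO and DKO mice and from 29.2% to 41.2% in the 4 WT mice.

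Of the other receptor genes, *Tlr11*, which binds profilin of protozoan parasites, was called higher in both comparisons. It was low in WT mice 4, 5, 10 and 13, at 1, 3.52, 0.704 and 2.93 CPM, and higher in IL10RAKO (14.8, 7.41, 11.9 and 10.7 CPM) and DKO mice (8.45, 8.53, 5.83 and 11.9 CPM). The log2 fold change was 2.47 (interval 1.47 to 3.48, edgeR adjusted p = 0.00227) and 2.11 (interval 1.11 to 3.10, adjusted p = 0.00569). WT mouse 11, however, had 17.1 CPM, and with this library added the fold change was 1.17 (adjusted p = 0.329) and 0.80 (adjusted p = 0.522). *Tlr12*, its partner in the recognition of profilin, averaged 119 ± 35 CPM (WT), 135 ± 49.2 CPM (IL10RAKO) and 135 ± 57.9 CPM (DKO), and its log2 fold change was 0.18 in both comparisons (interval -0.51 to 0.87).

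Genes for ligand delivery and co-receptors, for folding and transport, and for relay or restraint of the signal were followed in lists. With *Tlr6*, *Tlr11* and *Tlr12*, the lists hold 60 genes of the table, 58 of them tested. Against WT, 18 were called higher and 2 lower in IL10RAKO mice, and 18 higher and 3 lower in DKO mice, the higher genes including the receptors *Tlr6* and *Tlr11* both times, beside the 15.8% and 18.5% of all genes given above. No gene of the lists was called between DKO and IL10RAKO in edgeR or DESeq2, beside 0.0457% of all genes tested that edgeR called. In edgeR, 3 had an unadjusted p below 0.05. The median log2 fold change over the lists was 0.28 in IL10RAKO and 0.18 in DKO mice.

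The list for ligand delivery and co-receptors, which also holds integrin chains and *Mfge8*, had calls in both directions. Of its 9 genes, 1 was higher and 2 were lower in IL10RAKO mice, and 1 was higher and 3 were lower in DKO mice. Over all genes tested, 15.8% and 18.5% were called in either direction. *Itgb2*, the beta chain of the integrins that include complement receptor 3, was at 492 ± 16.6 CPM (WT), 1047 ± 197 CPM (IL10RAKO) and 1309 ± 120.1 CPM (DKO), a log2 fold change of 1.09 (edgeR adjusted p = 2.27e-04) and 1.41 (adjusted p = 2.4e-05). *Cd36*, a scavenger receptor that assists TLR2 with TLR6, went from 166 ± 45.8 to 47.8 ± 32.9 and 46.6 ± 9.69 CPM, and *Mfge8*, a bridge for the uptake of apoptotic cells, from 37.1 ± 15.5 to 9.96 ± 3.42 and 12.5 ± 1.05 CPM. Their log2 fold changes were -1.79 (edgeR adjusted p = 0.00501) and -1.83 (0.00405) for *Cd36*, and -1.89 (4.58e-04) and -1.57 (0.00151) for *Mfge8*. *Ly96*, which encodes the MD-2 subunit of the TLR4 complex, went from 14.2 ± 1.58 CPM to 10 ± 0.899 CPM (IL10RAKO) and 8.09 ± 2.24 CPM (DKO), with a log2 fold change of -0.50 (interval -0.98 to -0.017, edgeR adjusted p = 0.157) and -0.81 (interval -1.29 to -0.32, adjusted p = 0.0228). The second call was lost in 7 of 23 alternative settings, among them leaving out WT mouse 10 (-0.75) or DKO mouse 3 (-0.70), 9 (-0.72) or 12 (-0.79). All 6 fibroblast markers were lower in both comparisons and fibroblasts also express *Mfge8* and *Ly96*, and their part in these values was not tested.

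Of 15 tested genes for folding, trafficking and the endosome, 2 were higher in IL10RAKO and 3 in DKO mice. The shares called higher over all genes tested were 8.70% and 9.23%. *Slc15a3*, a transporter of peptide ligands out of endosomes, went from 66.6 ± 15 CPM to 166 ± 27.8 CPM (IL10RAKO) and 153 ± 21.6 CPM (DKO), a log2 fold change of 1.32 (edgeR adjusted p = 2.79e-04) and 1.20 (adjusted p = 4.83e-04). *Unc93b1*, the escort of the endosomal receptors, did not pass the test, at 1614 ± 186, 1957 ± 436 and 1827 ± 201 CPM.

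Of the 18 adaptors and proximal kinases tested, 7 were higher and none lower in each comparison, beside 8.70% and 9.23% of all genes called higher. *Irf7*, a transcription factor downstream of the nucleic acid receptors, was at 104 ± 9.11, 295 ± 96.8 and 255 ± 34.4 CPM (log2 fold change 1.51 and 1.30, edgeR adjusted p = 1.7e-04 and 4.58e-04). *Irak2*, a kinase-like protein of the MyD88 complex, was at 104 ± 14.5, 291 ± 80.2 and 255 ± 59.1 CPM (log2 fold change 1.49 and 1.30, adjusted p = 2.49e-04 and 6.12e-04). The shared adaptor *Myd88* was called in IL10RAKO mice (log2 fold change 0.77, edgeR adjusted p = 0.041) and not in DKO mice (0.50, adjusted p = 0.166), whereas *Ticam1*, the adaptor of TLR3, was called in neither. The *Myd88* call was lost when any of 8 mice was left out (IL10RAKO mouse 1, 2 or 8, WT mouse 5, 10 or 13, or DKO mouse 9 or 14), with values from 0.58 to 0.84 and adjusted p from 0.0516 to 0.141.

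Among the 13 negative regulators, 6 were higher in IL10RAKO and 5 in DKO mice, beside 8.70% and 9.23% of all genes tested. None of the 13 was called lower. *Socs1*, an inhibitor of cytokine receptor kinases, went from 15.7 ± 7.04 CPM to 77.5 ± 34.9 CPM (IL10RAKO) and 91.7 ± 25.6 CPM (DKO), a log2 fold change of 2.30 (edgeR adjusted p = 6.01e-04) and 2.54 (adjusted p = 2.5e-04). *Tnip1*, a partner of A20 in restraining NF-kB, had a log2 fold change of 1.30 (edgeR adjusted p = 4.58e-04) and 1.20 (adjusted p = 7.66e-04).

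**Figure D4:**
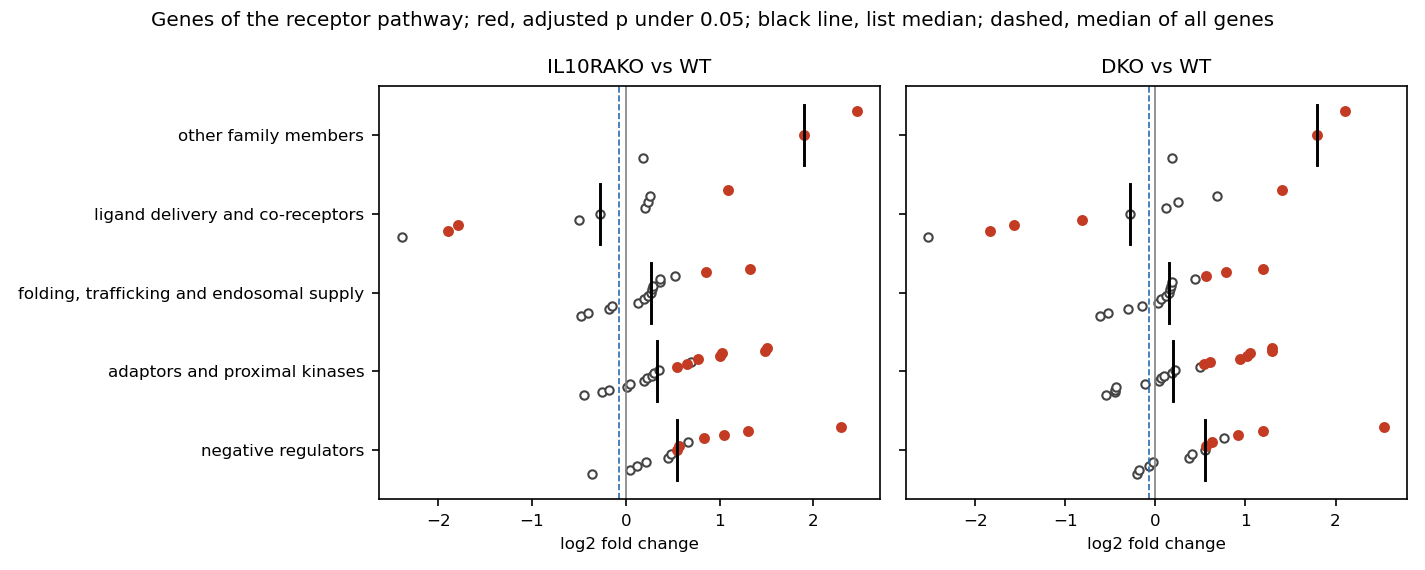
Log2 fold change of each tested gene of the 5 pathway lists against WT; red points have an adjusted p below 0.05, black bars are list medians and the dashed line is the median of all genes tested. The red points of the adaptor and regulator lists lie right of 0, and those of the ligand delivery list lie on both sides.

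The genes whose profile over the 12 libraries was closest to each receptor were ranked by the root mean square difference of centred log2 CPM. For *Tlr2*, whose log2 CPM had an SD of 0.856, these were *Mxi1* (0.119), *Cd14* (0.18) and the cytokine gene *Il1b* (0.188), and for *Cd14* (SD 0.894) they were *Ggct* (0.15), *Irf1* (0.171) and *Tlr2* (0.18). *Tlr13* (SD 0.32) was closest to *Slc11a1* (0.139), *Cln8* (0.152) and *Tlr1* (0.166), while *Tlr1* (SD 0.259) was closest to *Atp5g2* (0.142), *Lst1* (0.146) and *Calu* (0.15). *Tlr4* (SD 0.27) lay near *Snx14* (0.145), *Ctnnb1* (0.145) and *Galnt2* (0.158), and *Tlr5* (SD 0.359) near *Pla2g15* (0.224), *Cd44* (0.228) and *Fyb* (0.237). *Tlr7* (SD 0.441) lay near *BC037704* (0.16), *Tnfrsf11a* (0.194) and *Tmcc3* (0.204), and *Tlr8* (SD 0.395) near *Arsk* (0.20), *B430010I23Rik* (0.209) and *Slc37a2* (0.213). For *Tlr3* and *Tlr9*, whose SDs were 0.541 and 0.74, no gene came closer than 0.315 (*Faf2*) and 0.342 (*Pik3ip1*). *AI597479* (0.316) and *Nln* (0.321) followed for *Tlr3*, and *Mars2* (0.42) and *Cd22* (0.423), a B cell receptor gene, for *Tlr9*. A gene with a small spread is near many others by this measure, and these distances describe likeness over 12 libraries that share genotypes.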

How the data were processed

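RNA of sorted macrophages was converted to cDNA with SmartSeq v4, and paired-end reads were aligned by the authors to mm10 with STAR (2.5.1b, per the labels), with bcl2fastq 2.20 and edgeR 3.34.0 also named. The authors deposited raw read counts per gene, without normalization, for 14 libraries, and edgeR pseudocounts, a score per gene scaled to a common library size, for 12 libraries. Annotation, strand setting and multi-mapped reads are not given in the sources used here.

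Counts of the 12 libraries were fitted in R 4.3.3 with edgeR 4.0.16 (filterByExpr by genotype, minimum count 10; TMM; glmQLFit and glmQLFTest, no covariate), and p-values were adjusted over 13136 genes, with a threshold of 0.05. CPM used TMM factors, and log2 CPM a prior count of 2. Exon lengths and positions came from GENCODE vM21 (GRCm38), and promoter windows from RefSeq. Per-sample columns left unused numbered 0. Depth ran from 12153000 to 21216468 reads, where 3 reads gave 0.124 to 0.22 CPM. Such floors cover counting error only. The fit was tested on simulated data. Same-genotype libraries differed beyond sampling noise (chi-square per degree of freedom 30.9 or more). Labels do not state litter or batch, so whether either coincides with genotype is not known. The p-values set differences between genotypes against the spread between mice of a genotype.

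Alternatives were DESeq2 1.42.0, RLE factors, library totals, 2 other filters, WT mouse 11 added, fits of only 2 genotypes, edgeR 4 deviance, robust fits, limma 3.58.1 on log2(pseudocount + 1), leaving out each mouse, and an added *Xist* term. Named were the 10 genes, the other receptor genes, in each comparison and direction the 4 called pathway genes with the smallest p, the 3 nearest profiles of each gene, the targeted genes and markers by list. *Unc93b1*, *Myd88*, *Ticam1*, *Tnip1* and the single markers named in the text were picked after their values were seen. Members and lists were chosen with earlier results of these data known. Python 3.11.15 with matplotlib 3.10.9 drew the figures, and pandas 2.3.3 made the summaries.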

Additional observations from a re-analysis of the deposited data

Results flagged for a closer look

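In 3 of 40 groups of libraries examined (each of the 10 genes in each genotype, and in WT with mouse 11), 1 library lay so far from the rest that its gap exceeded Dixon's 95% critical value, which chance alone does in about 5% of groups. *Tlr1* (TLR1) was at 117 CPM in WT mouse 10, above 82.4 to 86.1 CPM in WT mice 4, 5 and 13. WT mouse 11 had 113 CPM, and with this library in the group mouse 10 no longer stood apart by the same criterion. *Tlr5* (TLR5) was at 15.6 CPM in IL10RAKO mouse 8, above 11 to 11.6 CPM in the other mice of the genotype. *Tlr3* (TLR3) was at 19.4 CPM in DKO mouse 14, above 9.77 to 10.8 CPM in the others.

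CCR2KO mouse 6, which entered no comparison, had 4.05 CPM of *Tlr9* (TLR9, 82 reads), above the highest of the 4 WT mice (3.58 CPM). Its plasmacytoid dendritic cell markers summed to 45.7 CPM, beside 24 to 36.5 CPM in the 4 WT mice, and its B cell markers to 775 CPM, within the 401 to 1145 CPM of those mice. The part of either cell type in this value was not tested.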

How the results depend on the processing

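The number of the 10 genes called stayed at 2, 2 and 0 (IL10RAKO vs WT, DKO vs WT, DKO vs IL10RAKO) in 11 alternative settings, and *Tlr2* and *Cd14* kept their calls against WT in these and when each of the 12 mice was left out. Leaving out WT mouse 10 added *Tlr13* in IL10RAKO vs WT (0.64). Pathway genes called (*Tlr6*, *Tlr11* and *Tlr12* counted among them) ranged from 15 (only the 2 genotypes compared) to 22 in IL10RAKO and from 17 to 25 in DKO mice, and from 14 (without WT mouse 5) to 21 and 15 (without DKO mouse 9) to 23 with a mouse left out. Of the 24 pathway genes called in either comparison, 11 kept direction and side of the threshold in both comparisons throughout: *Tlr6*, *Cd36*, *Mfge8*, *Itgb2*, *Slc15a3*, *Ctss*, *Irak2*, *Traf6*, *Irf7*, *Tnip1* and *Socs1*. The call of *Myd88* was lost in 10 settings, and those of *Tlr11* with WT mouse 11 added. Over all genes, DKO vs IL10RAKO gave 2 calls higher and 4 lower in edgeR, and 3 and 21 in DESeq2.

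Library totals without TMM moved the median of all genes from -0.07 to -0.39 (IL10RAKO vs WT) and from -0.065 to -0.32 (DKO vs WT), and the calls from 1143 higher and 933 lower to 651 and 2084, and from 1213 and 1211 to 748 and 2140. No gene that reversed sign had passed the test. With library totals, IL10RAKO vs WT gave -0.30 for TLR4, -0.15 for TLR5, -0.062 for TLR3, -0.086 for TLR9 and -0.14 for TLR12, DKO vs WT gave -0.15 for TLR1, -0.17 for TLR4, -0.13 for TLR3 and -0.09 for TLR12, and DKO vs IL10RAKO gave 0.014 for TLR2. At least 10 reads in every library gave -0.017 for TLR4 in IL10RAKO vs WT. With WT mouse 11 added, TLR4 was -0.088 in IL10RAKO vs WT and -0.047 in DKO vs WT, and TLR8 was 0.024 in IL10RAKO vs WT. With 1 mouse left out, IL10RAKO vs WT ranged from -0.13 to 0.12 for TLR4, -0.18 to 0.14 for TLR8, -0.079 to 0.69 for TLR9 and -0.08 to 0.34 for TLR12. In the same way, DKO vs WT ranged from -0.034 to 0.23 for TLR4, -0.15 to 0.57 for TLR3, -0.31 to 0.085 for TLR8 and -0.13 to 0.38 for TLR12, and DKO vs IL10RAKO from -0.20 to 0.078 for TLR2, -0.075 to 0.21 for TLR4, -0.45 to 0.077 for TLR7 and -0.29 to 0.11 for TLR8. Beyond the construction of each alternative, the cause was not tested. No paired analysis was possible because the genotypes hold different mice with no shared numbers. *Tlr9* had the fewest reads of the 10 genes, with 14 to 68 per library.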

Other observations

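WT mouse 11, the library with the fewest reads, had no read of *Tlr3* or *Tlr9*, whereas its *Tlr4* (62.4 CPM), *Tlr5* (16.2 CPM), *Tlr6* (21.8 CPM) and *Tlr11* (17.1 CPM) lay above the other 4 WT mice. Its 4 conventional dendritic cell markers summed to 1.69 CPM, beside 20.8 to 106 CPM in the other WT mice, and its B cell markers to 92.8 CPM, beside 401 to 1145 CPM. Epithelial markers summed to 2995 CPM in this library and to between 51.1 and 1210 CPM in the other WT mice. In CCR2KO mouse 6, *Tlr1* was at 101 CPM, *Tlr4* at 40.3 CPM, *Tlr13* at 94.6 CPM and *Tlr6* at 4.79 CPM, all within the range of the 4 WT mice. Its *Tlr5* (8.44 CPM), *Tlr7* (31.6 CPM) and *Tlr12* (65.3 CPM) lay below the lowest of those mice (9.32, 36.3 and 67.7 CPM).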
